A study of Mus musculus with 75 samples.

Results

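A set of 10 genes that mark tissue macrophages, namely C1qa, C1qb, C1qc, Lyz2, Cd68, Csf1r, Adgre1, Mrc1, Tyrobp and Fcer1g, were followed through cultures of mouse skin fibroblasts. They were chosen by name, and are 10 of the 24984 genes in the count tables. For the passage series, skin fibroblasts of 2-month-old female C57BL/6 mice were grown until replicative senescence. They were used without further treatment at passage 1 (P1) and at the later passages P3, P5 and P7, with 4 RNA-seq libraries per passage. The ATAC-seq data comprised 4 samples of P1 and 3 of each later passage. In the E2f4 overexpression experiment, 2 libraries of cells with a doxycycline-induced lentiviral E2f4 were compared with 2 libraries of cells with the vector, which carried EGFP. In the knockdown experiments, lentiviral hairpins against E2f4 (sh1), Tead1 (sh3 and sh4) and Atf3 (sh5 and sh6) were compared with a non-targeting hairpin (nt) in each experiment, with 3 libraries per group. Puromycin was used to select cells with a hairpin. E2f4 was overexpressed in P4 cells and knocked down in P3 cells. In the study, proliferating cells were of P2 or P3 and interventions in senescence were made in P6 cells, and which of these the Tead1 and Atf3 libraries came from is not stated in the labels. Fibroblasts of newborn mice, whose strain is not stated, also served for such experiments beside those of 2-month-old mice. The labels do not say for which libraries. The labels do not tie the libraries to separate animals or cultures, so the p-values measure the spread between these libraries, which may be technical.

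Macrophages are phagocytic leukocytes that reside in the dermis, and a digest of whole skin releases them together with fibroblasts. C1qa, C1qb and C1qc encode the chains of C1q, the recognition part of the first complement component, which is made mainly by macrophages and dendritic cells. Lyz2 encodes lysozyme M, a secreted enzyme that cleaves bacterial cell walls, and Cd68 encodes a glycoprotein of late endosomes and lysosomes. Csf1r is the receptor for Csf1 and Il34, the factors on which macrophages depend for survival. Adgre1 encodes the surface antigen F4/80 and Mrc1 the mannose receptor CD206. Tyrobp (DAP12) and Fcer1g (the common gamma chain of Fc receptors) are small adaptors that pass on signals from activating receptors of myeloid cells.

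The total counts on genes lay between 13430229 and 15725823 in the 16 passage libraries and between 9147324 and 27552949 over all 44 libraries. The fibroblast label held in every group, where the 12 fibroblast genes summed to 31170 CPM or more in each library. Vim was at 3387 ± 345 CPM (counts scaled to the TMM-adjusted library size, mean ± SD, n = 4) and Col1a1 at 8997 ± 316 CPM at P1, and the fibroblast sum was 32040 ± 799 CPM at P1 and 69190 ± 5340 CPM at P7. E2f4 lay at 1120 to 1180 CPM in the overexpressing libraries against 35.5 to 47.5 CPM with the vector, and at 20.4 to 21.8 CPM with sh1 against 59.6 to 60.8 CPM with nt. Tead1 was lower with both hairpins without overlap, at 268 to 320 CPM against 508 to 572 CPM. Atf3 was at 0.451 to 2.1 CPM with sh5 and 1.51 to 2.09 CPM with sh6 against 2.77 to 3.31 CPM with nt, and its difference passed the test of edgeR with sh5 (adjusted p = 0.0447) but not with sh6 (adjusted p = 0.114).

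The libraries numbered replicate 4 at P1, P5 and P7 of the passage series stood apart in these genes. Replicate 4 of P1 had the lowest CPM of the P1 libraries for all 10 markers. Replicate 4 of P7 had the highest CPM of the P7 libraries for 8 of the 10 markers, with Cd68 and Csf1r as the exceptions. The 7 markers with few reads at late passage (C1qa, C1qb, C1qc, Adgre1, Mrc1, Tyrobp and Fcer1g) held 110 reads together in this library, against 21, 8 and 8 reads in replicates 1 to 3 of P7. The summed level of endothelial genes in it was 16.4 CPM within a range of 15.34 to 18.06 CPM over P7. It was the highest of the P7 libraries for genes of Schwann cells and melanocytes (128.9 CPM, lowest 43.5 CPM), of other leukocytes (746.2 CPM, lowest 688.7 CPM) and of fibroblasts (74810 CPM, lowest 62040 CPM), and their part in the marker levels was not tested. The levels of P7 are given with and without this library, and without replicate 4 of P1 the counts of called markers against P1 were 10, 10 and 9 as with it. Replicate 4 of P5 held 75 reads of the same 7 markers, against 32 in each of replicates 1 to 3 of P5. It was also the highest P5 library for genes of Schwann cells and melanocytes (93.73 CPM, lowest 47.81 CPM). The P5 levels include this library, and without it all 10 markers were still called lower at P5 than at P1.

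To ask how long macrophages stay among the fibroblasts, the markers were first compared between P1 and P3. At P1 every marker was present in every library. Per kilobase of exons, Lyz2 had the highest level, at 266.5 ± 48.9 CPM (SD, n = 4), followed by Cd68 at 30.11 ± 5.37. Tyrobp at 17.63 ± 2.33, C1qa at 16.69 ± 3.8, Fcer1g at 16.35 ± 3.85, C1qb at 13.72 ± 3.96 and C1qc at 12.59 ± 4.51 overlapped one another in their ranges over libraries. Mrc1 at 6.368 ± 0.964 and Csf1r at 5.291 ± 0.761 also overlapped, and Adgre1 was the lowest at 3.304 ± 0.854, below every library of Csf1r. The ranges of C1qc and Mrc1 also touched, and Lyz2 and Cd68 were apart from their neighbours in this order.

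The reads of C1qa fell from 307, 295, 280 and 194 in the 4 P1 libraries to 28, 17, 10 and 26 at P3, which was 13-fold lower (log2 fold change -3.70, standard error 0.35, adjusted p = 1.59e-07 with edgeR). C1qb fell from 301, 189, 241 and 172 reads to 17, 33, 19 and 26, and C1qc from 275, 242, 211 and 114 reads to 16, 29, 10 and 20. No P3 library reached a P1 library in any chain of C1q. Lyz2, the marker with the most reads, fell from 4672, 4185, 4601 and 3357 reads to 593, 596, 460 and 330, which was 8.42-fold lower (adjusted p = 1.25e-08 with edgeR). Cd68 fell from 588, 620, 588 and 446 reads to 49, 44, 40 and 33, which was 13.3-fold lower (adjusted p = 1.64e-10 with edgeR). Both had thus left the range of P1 after the first passages.

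Among the surface receptors, Adgre1 fell from 197, 173, 177 and 112 reads to 16, 27, 20 and 10, and Mrc1 from 562, 542, 486 and 435 reads to 19, 37, 29 and 40. Mrc1 had the largest fall of the 10 markers in this comparison, 15.8-fold (log2 fold change -3.98, standard error 0.28). The adaptor Tyrobp fell from 155, 172, 142 and 138 reads to 7, 14, 7 and 12, and the adaptor Fcer1g from 176, 186, 165 and 114 reads to 10, 14, 11 and 15. Csf1r, the receptor for Csf1, had the smallest fall of the 10 markers. It had 354, 305, 292 and 276 reads at P1 and 129, 121, 141 and 130 at P3, which was 2.32-fold lower (adjusted p = 1.15e-06 with edgeR). Its P3 level was 43.1% of the P1 mean, and those of the other 9 markers lay between 6.34% (Mrc1) and 11.9% (Lyz2).

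Genes count as called where the adjusted p lay below 0.05 and the log2 fold change exceeded 1 in size. At P3 all 10 markers were called lower than at P1, where 6.58% of the 13442 genes tested were called lower. The median log2 fold change was -3.55 over the markers, beside 0.005 over all genes tested. C1qa, C1qc, Tyrobp and Fcer1g passed the filter on low counts through their P1 libraries alone, and at P5 and P7 the counts of only 3 markers (Lyz2, Cd68 and Csf1r) would have passed it. The others entered the tests because they were high earlier, so the counts of calls against P1 are a description. In RNA of whole cultures, fewer cells of a type and less RNA per cell cannot be told apart.

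**Figure D1:**
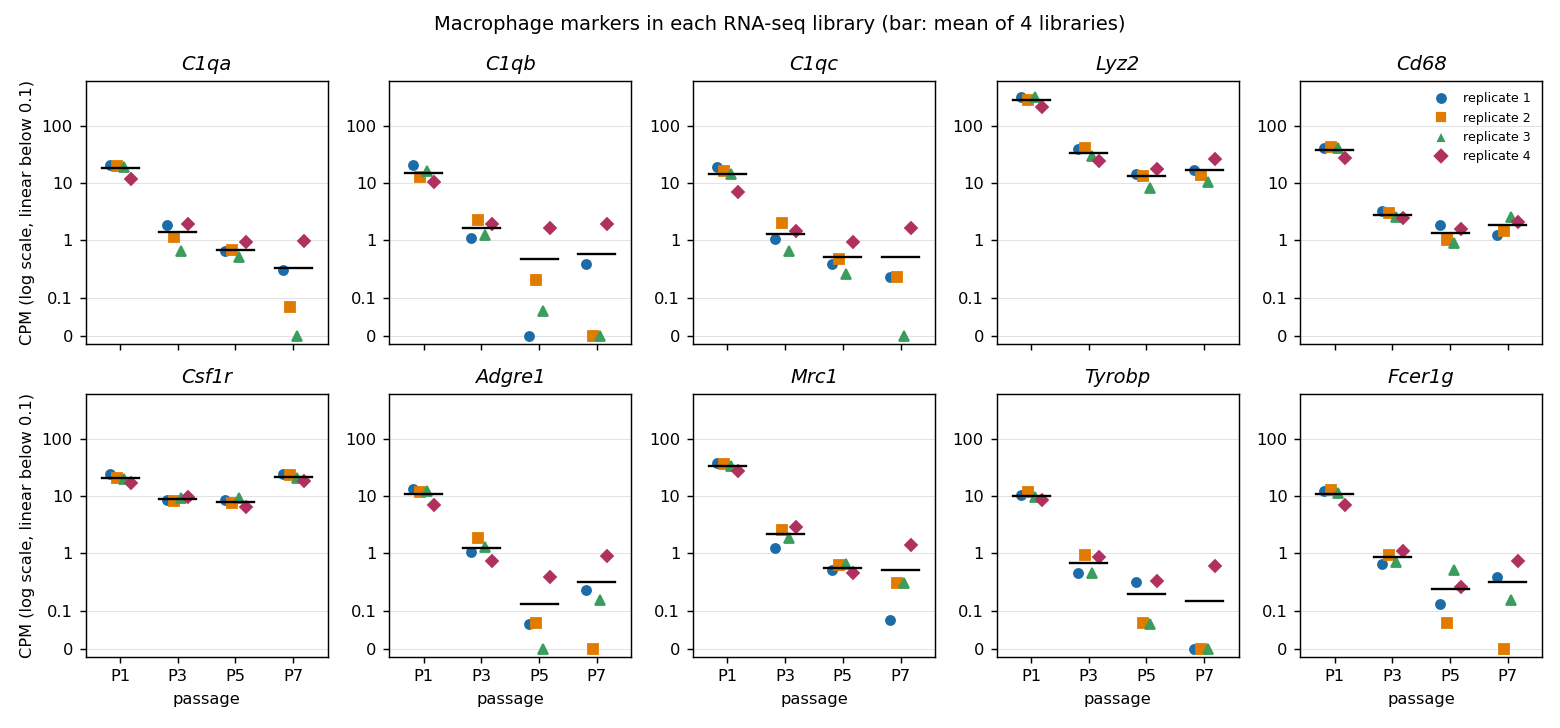
Level of the 10 macrophage markers in each of the 16 RNA-seq libraries of the passage series, in CPM on a log axis that is linear below 0.1. Each point is a library, the symbol gives its replicate number and the bar is the mean of 4 libraries. For 9 markers no later library reaches the P1 libraries, Csf1r returns at P7 to the range of P1, and replicate 4 of P7 lies above the other P7 libraries in most panels.

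From P3 to P5 a part of the markers went down further. Lyz2 fell 2.49-fold to 226, 189, 128 and 267 reads (adjusted p = 0.000712 with edgeR) and Cd68 2.07-fold to 29, 15, 14 and 24 reads (adjusted p = 0.00519). Adgre1 fell to 1, 1, 0 and 6 reads, the largest step of the markers at 8.83-fold, and Mrc1 fell 3.75-fold to 8, 9, 10 and 7 reads. Fcer1g fell 3.35-fold to 2, 1, 8 and 4 reads (adjusted p = 0.0251). Tyrobp, at 5, 1, 1 and 5 reads, had an adjusted p of 0.0509 with edgeR. The chains of C1q were not called between P3 and P5, with 10, 10, 8 and 14 reads of C1qa (adjusted p = 0.12), 0, 3, 1 and 25 reads of C1qb (adjusted p = 0.105) and 6, 7, 4 and 14 reads of C1qc (adjusted p = 0.124). For C1qb, replicate 4 of P5 held 25 of the 29 reads, and without this library the log2 fold change was -4.07 (adjusted p = 0.00875) and C1qb was called. Csf1r, with 131, 108, 144 and 99 reads, was not called (log2 fold change -0.15, standard error 0.14, adjusted p = 0.436 with edgeR). In all, 5 of the 10 markers were called lower at P5 than at P3, where 3.05% of genes tested were. Several of these calls lay near the limits. Cd68 had a log2 fold change of -0.98, -0.95 or -0.90, below the fold limit, without replicate 1 of P3, replicate 2 of P5 or replicate 3 of P5. Fcer1g had an adjusted p of 0.0546 to 0.0657 without replicate 2 or 4 of P3 or replicate 1, 2 or 4 of P5, and without replicate 2 of P5 the count of called markers was 3. Tyrobp passed without replicate 1 of P3, replicate 1 of P5 or any library of P7 (adjusted p = 0.0118 to 0.0476), and it was called by DESeq2 (log2 fold change -1.78, adjusted p = 0.00605) and by edgeR without the filter on low counts (adjusted p = 0.04). C1qc was called in the fit of these passages alone (adjusted p = 0.0497), so that each of these 3 alternatives gave 6 called markers.

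Against P1, all 10 markers were called lower at P5, and 10.1% of genes tested were called lower in that comparison. The P5 level was 4.76% of the P1 mean for Lyz2, 3.6% for Cd68, 1.66% for Mrc1 and 1.2% for Adgre1. For Csf1r it was 38.8%. The ratio of P1 to P5 of Adgre1 was 82.9 by the summed reads (659 against 8), with a 95% exact interval of 41.8 to 193, and that of Lyz2 was 20.9 (19.5 to 22.5). These intervals cover counting error only, and at so few reads the exact depth of the fall of Adgre1 was not resolved.

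At P7, the last passage, none of the markers other than Csf1r was called against P5 by edgeR or DESeq2, nor had one an unadjusted p under 0.05. Lyz2 had 219, 176, 136 and 349 reads and was 1.25-fold higher than at P5, which did not pass the test (adjusted p = 0.429 with edgeR). Cd68 had 16, 19, 33 and 28 reads (adjusted p = 0.312). Their levels thus lay at 5.91% and 4.86% of the P1 means. Tyrobp had 0, 0, 0 and 8 reads, Adgre1 3, 0, 2 and 12, and Mrc1 1, 4, 4 and 19. The chains of C1q had 4, 1, 0 and 13 reads of C1qa, 5, 0, 0 and 26 of C1qb and 3, 3, 0 and 22 of C1qc, and Fcer1g had 5, 0, 2 and 10. In each of these 7 markers the last value, of replicate 4, was the highest of the passage. Without that library the P7 level was 0.706% of the P1 mean for C1qa, 0.84% for C1qb, 1.08% for C1qc, 1.15% for Adgre1, 0.682% for Mrc1 and 1.66% for Fcer1g, and Tyrobp had no read. Lyz2 was then at 4.82% and Cd68 at 4.64%, and the same 9 markers were called lower than at P1.

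The 9 markers without Csf1r had a summed level of 432.5 ± 80.9 CPM at P1 (SD, n = 4) and of 45.44 ± 8.67 CPM at P3. The sum was 17.58 ± 5.38 CPM at P5, where replicate 4 was the highest at 24.23 CPM, and 21.24 ± 10.2 CPM at P7. Without replicate 4 of P7 the P7 sum was 16.27 ± 3.02 CPM (n = 3), which is 3.76% of the P1 mean. The sum of the 7 markers with few reads was 113.2 ± 24 CPM at P1 and 2.75 ± 3.64 CPM at P7, and without replicate 4 it was 0.9451 ± 0.57 CPM at P7, or 0.835% of P1. Between P5 and P7, Csf1r was the 1 marker of 10 that was called, and 3.47% of genes tested were called in either direction. Without replicate 4 of P7, C1qa (log2 fold change -2.36, adjusted p = 0.0264 with edgeR) and Tyrobp (log2 fold change -4.59, adjusted p = 0.0295) were also called lower at P7 than at P5. Replicate 4 of P5 was kept in that fit.

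Csf1r was the marker that rose at the end. Its reads at P7 were 322, 305, 265 and 250, all above the highest P5 library with 144 reads. It rose 2.73-fold from P5 to P7 (log2 fold change 1.45, standard error 0.14, adjusted p = 1.39e-06 with edgeR), and 1.19% of genes tested were called higher in this step. With replicate 4 of P7 left out the log2 fold change was 1.52. At 21.76 ± 2.79 CPM (SD, n = 4) its level at P7 overlapped that of P1, 20.5 ± 2.95 CPM (log2 fold change 0.09, standard error 0.13, adjusted p = 0.573), while 9 of the 10 markers were called lower at P7 than at P1 (background 13.3%). Over the 16 libraries its Pearson correlation with the mean z-score of the 10 markers was 0.439, and those of the others lay between 0.945 and 0.990. The comparisons against P1 share the P1 libraries. Spi1, which encodes the myeloid transcription factor PU.1, was followed beside Csf1r. It had 364 reads over the P1 libraries, 28 at P3 and 17 at P5, and 1, 0, 0 and 5 reads in the P7 libraries. Its level was 6.081 ± 1.54 CPM at P1 and 0.1119 ± 0.177 CPM at P7, or 0.02545 ± 0.0441 CPM without replicate 4 of P7, and it was called lower at P7 than at P1 with and without that library (adjusted p = 5.17e-08 and 2.83e-08 with edgeR).

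**Figure D2:**
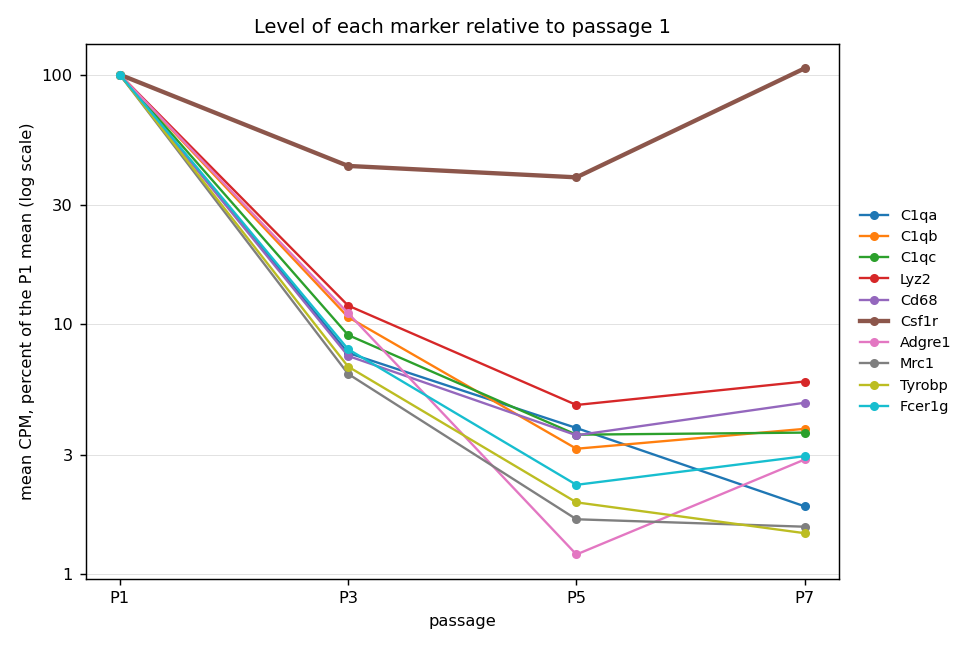
Mean CPM of each marker as percent of its P1 mean, on a log axis, over the 4 passages (n = 4 libraries at each). Points are means without error bars, and the spread over libraries is in the plot by library. The other 9 lines lie between 1.46% (Tyrobp) and 5.91% (Lyz2) at P7, and without replicate 4 of P7 these values would lie between 0% (Tyrobp) and 4.82% (Lyz2), while the line of Csf1r lies at 38.8% at P5 and 106% at P7.

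The ligands of Csf1r were made by the cultures at every passage. Csf1 went from 1646 ± 219 CPM at P1 to 1532 ± 90 CPM at P3 (SD, n = 4). At P5 its level was 1522 ± 85.8 CPM and at P7 2126 ± 283 CPM, and the difference of P7 from P5 was 1.4-fold (adjusted p = 0.00287 with edgeR), below the limit of a call. Il34 was at 5.442 ± 1.44 CPM at P1 and rose 2.7-fold to 14.72 ± 3.52 CPM at P7 (adjusted p = 2.72e-05). Of a list of 10 ligands of Csf1r and attractants of monocytes, 8 were tested, and between P1 and P3 there were 3 called lower and 1 higher. Among all genes tested, 6.58% were called lower and 2.4% higher in this step. Ccl2, which attracts monocytes, went from 416.7 ± 60.8 to 191.5 ± 26.7 CPM between P1 and P3 and was at 530 ± 79.1 CPM at P7, and Ccl8 went from 210.4 ± 36.3 to 52.48 ± 5.07 and was at 163.6 ± 44.5 CPM at P7.

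Partners of the markers were read from lists. Of 12 genes of receptors that signal through Tyrobp or Fcer1g, with the kinase Syk among them, 6 were tested and 5 were called lower at P3. In that comparison with P1, 6.58% of all genes tested were called lower. As with the markers, genes that were high at P1 alone could pass the filter on low counts. The counts of calls against P1 in this and the other lists are therefore a description. Clec4d, a C-type lectin receptor, went from 12.39 ± 1.77 CPM at P1 to 0.3795 ± 0.258 at P3, and Trem2, a lipid receptor of macrophages, from 10 ± 2.4 to 0.6406 ± 0.162 CPM. The partners of C1q in the C1 complex are also made by fibroblasts. Of 5 genes, 3 were tested and none was called by edgeR or DESeq2 at any later passage against P1, with 3, 1 and 3 of them at an unadjusted p under 0.05 for P3, P5 and P7. Serping1, the C1 inhibitor, was at 132.3 ± 20 CPM at P1 and 89.74 ± 13.6 at P7, and the protease gene C1s1 was at 64.72 ± 11.3 CPM at P1 and 39.79 ± 12.5 at P7. The differences of both between P7 and P1 had adjusted p-values of 0.000752 and 0.00838 with log2 fold changes of -0.56 and -0.70, which are under the fold limit.

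Of 48 further genes of macrophages and other leukocytes, 35 were tested and 31 were called lower at P3 with none higher, and at P7 33 were lower and 1 was higher. Over all genes tested, 6.58% were called lower at P3 and 13.3% at P7, each against P1, and the share called higher at P7 is not given here. Genes that were high at P1 alone could pass the filter on low counts, so these counts of calls are a description. Ctss, a lysosomal protease for antigen processing, went from 87.97 ± 15.5 CPM at P1 to 7.284 ± 1.93 at P3 and 0.825 ± 0.96 at P7, and the chemokine Ccl6 from 44.34 ± 20 to 1.029 ± 0.593 and 0.09549 ± 0.0969 CPM. Laptm5, of lysosomes of leukocytes, went from 32.96 ± 2.83 CPM at P1 to 2.493 ± 1.65 at P7. Other genes of this list kept higher levels at P7. Gpnmb was at 1126 ± 52 CPM at P1 and 505.6 ± 31.6 at P7, Sirpa at 194.9 ± 8.72 and 96.39 ± 10.5, and Apoe at 60.76 ± 5.22 and 8.734 ± 1.23 CPM. The gene called higher was Cd53, a tetraspanin of leukocytes, which rose from 8.142 ± 2.29 CPM at P1 to 80.48 ± 6.12 at P7 (log2 fold change 3.31, adjusted p = 1.79e-11 with edgeR). Between P5 and P7 Cd53 and Csf1r were called higher, and none of the other 9 macrophage markers was called. Lyz2 was at 13.4 ± 3.92 CPM at P5 and 16.66 ± 6.67 CPM at P7. Cd68 was at 1.351 ± 0.457 and 1.825 ± 0.595 CPM, and the means of the 7 markers with few reads lay below 1 CPM at both passages. The cause of the rise of Cd53 and Csf1r was not tested.

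Markers of neutrophils, of T and NK cells and of B cells were scarce from the start. The summed level of 11 neutrophil genes was 1.586 ± 0.351 CPM at P1, that of 12 genes of T and NK cells 2.639 ± 0.325 and that of 7 B cell genes 5.098 ± 1.57. Of 10 mast cell genes, 2 were tested, and Kit and Gata2 were called lower at P3, at 0.5614 ± 0.122 and 1.696 ± 0.477 CPM. Of the 14 class II and dendritic cell genes 9 were tested, with 4 called lower at P3. Over all genes tested, 6.58% were called lower in that comparison. Against P1, 4 were called lower at P7 (background 13.3%), and H2-DMa, H2-DMb1 and Xcr1 were called higher. The share of all genes called higher at P7 against P1 is not given here, so these higher calls have no background. The list summed to 31.73 ± 3.42 CPM at P1, 19.06 ± 1.54 at P3 and 33.01 ± 5.4 at P7. H2-Ab1 was at 4.282 ± 1.15 CPM at P1 and 3.606 ± 0.769 at P7, and H2-DMb1 rose to 15.21 ± 2.74 CPM at P7 (adjusted p = 5.18e-08 with edgeR).

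Genes of endothelium, skeletal muscle and keratinocytes were mostly called lower in the same step. At P3, 11 of 12 endothelial genes tested were called lower than at P1, as were 10 of 11 genes of skeletal muscle, 7 of 9 of keratinocytes (with Ivl higher) and 2 of 4 of adipocytes. The share called lower over all genes tested was 6.58%. The endothelial gene Cdh5 went from 46.02 ± 1.75 CPM at P1 to 8.658 ± 1.75 at P3, and Fabp4 of adipocytes from 50.5 ± 6.64 to 5.859 ± 0.384 CPM. Krt14 varied widely at P1, at 54.15 ± 53.8 CPM. Genes of Schwann cells and melanocytes were called higher for 2 and lower for 1 of 6 tested. Of 12 fibroblast genes, 3 were called higher (Col3a1, Col5a1 and Fn1) and 2 lower, where 2.4% of all genes tested were called higher. The part of these other cells in the levels of the macrophage markers was not tested.

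The genes whose log2 CPM followed the mean of the markers most closely over the 16 libraries were Slc11a1 with a Pearson correlation of 0.985, Ncf4, Clec4d, Hk3, Pirb, Adam8, Ptprc, Wfdc17, Tlr13 and Myo1f with 0.978. Slc11a1, a metal transporter of phagosomes, was at 8.626 CPM at P1 and 0.3015 CPM at P7, and Ptprc, the leukocyte antigen CD45, at 7.626 and 0.2084 CPM. These 16 points fall into 4 passages, so that any gene that is high at P1 and low later scores well, and 346 of 13432 genes had a correlation over 0.9. Lyz1, the near-identical copy of Lyz2, had 114 reads over the P1 libraries against 16815 of Lyz2 and 8 reads or fewer at each later passage. How reads shared by the copies were treated is not stated.

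The next question was whether the promoters of these genes were open at the same passages. The labels do not tie the ATAC-seq samples to the RNA-seq libraries. RefSeq (GRCm38.p6) promoter sequences were at hand for 6 of the 10 markers, C1qb, C1qc, Lyz2, Cd68, Mrc1 and Fcer1g. Below are the 250 bases before the start site, 5′ to 3′ on the gene's strand, of the markers with an ATAC-seq peak at the start site in every sample (Lyz2 and Cd68) and of the pair that had no peak in any sample and whose promoters hold the motif found in Lyz2 (C1qb and Mrc1). Capitals mark matches to AGGAAGT, the ETS core that PU.1 binds, and TGAGTCA, the site of AP-1, searched on both strands.
Lyz2: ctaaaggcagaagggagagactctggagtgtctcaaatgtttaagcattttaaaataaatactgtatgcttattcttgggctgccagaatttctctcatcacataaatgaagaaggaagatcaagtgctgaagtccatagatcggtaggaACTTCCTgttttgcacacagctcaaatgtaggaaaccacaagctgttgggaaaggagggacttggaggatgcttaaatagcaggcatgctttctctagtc
Cd68: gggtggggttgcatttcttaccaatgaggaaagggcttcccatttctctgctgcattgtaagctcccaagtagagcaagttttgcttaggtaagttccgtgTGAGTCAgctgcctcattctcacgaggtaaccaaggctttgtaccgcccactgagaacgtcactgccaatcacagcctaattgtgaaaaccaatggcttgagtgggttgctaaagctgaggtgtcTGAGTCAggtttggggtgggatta
C1qb: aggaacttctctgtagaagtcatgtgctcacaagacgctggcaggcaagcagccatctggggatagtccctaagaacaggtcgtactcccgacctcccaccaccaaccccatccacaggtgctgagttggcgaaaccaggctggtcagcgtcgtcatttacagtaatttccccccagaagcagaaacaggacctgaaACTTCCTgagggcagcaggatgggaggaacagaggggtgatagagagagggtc
Mrc1: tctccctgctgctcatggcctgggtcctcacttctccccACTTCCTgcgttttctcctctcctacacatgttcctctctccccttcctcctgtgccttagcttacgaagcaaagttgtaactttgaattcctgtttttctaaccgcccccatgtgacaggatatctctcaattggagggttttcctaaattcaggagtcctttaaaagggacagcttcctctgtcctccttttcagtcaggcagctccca
Lyz2 lies on chromosome 10 at 117277541 to 117282272 on the minus strand, Cd68 on chromosome 11 at 69664213 to 69666170 (minus), C1qb on chromosome 4 at 136880126 to 136886200 (minus) and Mrc1 on chromosome 2 at 14229414 to 14332023 (plus). C1qa (136895916 to 136898844) and C1qc (136889801 to 136892936) lie beside C1qb on the same strand of chromosome 4. Adgre1 lies on chromosome 17 at 57358581 to 57483529 (plus), Tyrobp on chromosome 7 at 30413782 to 30417582 (plus) and Fcer1g on chromosome 1 at 171229572 to 171234349 (minus). The printed promoters are chr10:117282273-117282522, chr11:69666171-69666420, chr4:136886201-136886450 and chr2:14229164-14229413. A match to AGGAAGT was found in 4 of the 6 promoters (C1qb, C1qc, Lyz2 and Mrc1) and in 7.69% of 32851 RefSeq promoters over the same 250 bases. In Lyz2 it began 100 bases before the start site and in C1qb 53 bases before it. TGAGTCA was found in Cd68, at 149 and at 24 bases before the start site, and in 4.46% of promoters. GGAATG, the motif of TEAD factors, was found in none of the 6 and in 12.6% of promoters. AGGAAGT and GGAATG share the letters GGAA, no match overlapped another, and a match describes letters only.

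ATAC-seq peaks were called by the authors in each sample on its own, without read counts in the lists, so the depth is unknown. The strength of a peak was taken as the percentile of its -log10 p among all peaks of its sample, with 0 where no peak was called within 1000 bases of a start site. The P1 lists held 168982 to 186562 peaks and the P3 lists 142384 to 155681. There were 182402 to 207965 peaks at P5 and 200376 to 231558 at P7, and the part of these numbers in the results was not tested beyond the alternative that kept the same number of peaks in every sample. Of all genes, 60.8% had such a peak in all 13 samples and 25.9% in none.

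The promoter of Lyz2 carried a peak in all 13 samples, with its summit 1 to 34 bases before the start site. Its percentile was 68.87, 73.56, 66.81 and 74.61 in the P1 samples, 74.4, 66.54 and 67.76 at P3, 80.93, 88.3 and 83.66 at P5 and 88.15, 90.65 and 91.78 at P7. The samples of P5 and P7 lay above all samples of P1. The mean difference from P1 was 13.34 percentiles for P5 and 19.23 percentiles for P7. Each had p = 0.0286 in a two-sided exact permutation test, the smallest p that 4 against 3 samples allow. The fold enrichment at the summit was 8.335 ± 1.142 at P1 (SD, n = 4) and 17.87 ± 1.771 at P7 (n = 3). The RNA level of Lyz2 was 16.9-fold lower at P7 than at P1 by edgeR, so that its promoter peak and its RNA moved in opposite directions. The bases covered by the peak did not separate P7 from P1, with 564.7 ± 24.42 against 470.2 ± 72.71 (exact permutation p = 0.0857).

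Csf1r, on chromosome 18, had no promoter peak in the 4 P1 samples. At P3 the percentile was 0, 51.6 and 41.62, at P5 54.43, 32.63 and 0, and at P7 56.42, 65.62 and 49.81, with the summit within 23 bases of the start site. The P7 samples all differed from P1 (57.29 ± 7.941, exact permutation p = 0.0286). The percentiles of P5 and P7 overlapped, while the RNA rose between them, and at P1 the RNA overlapped that of P7 without a called peak. In C1qa a peak was called in none of the P1 and P3 samples, in 1 of 3 at P5 with a percentile of 21.35 and in 3 of 3 at P7 with 33.81, 47.55 and 49.56 (exact permutation p = 0.0286 for P7 against P1). Its summit lay in an intron, 453 to 474 bases after the start site. The P7 libraries held 18 reads of C1qa against 1076 at P1.

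Cd68 had a peak in every sample, 41 to 155 bases before the start site, and its percentile was 67.08, 44.4, 54.59 and 53.2 in the P1 samples and 60.38, 70.49 and 52.83 in the P7 samples. The means were 54.82 ± 9.339 at P1 (SD, n = 4) and 59.26 ± 16.54, 45.49 ± 15.27 and 61.23 ± 8.861 at the 3 later passages (n = 3 each). The ranges overlapped at every passage (exact permutation p = 0.686, 0.4 and 0.4 against P1), although the RNA level of Cd68 was 20.5-fold lower at P7 by edgeR. Near C1qc a peak was called in 3 of 4 samples at P1, in none at P3 and in 1 of 3 at both later passages, with the summit 1187 to 1383 bases before the gene, outside any gene. Fcer1g had a peak in an intron, 1128 to 1159 bases after the start site, in 1 of 3 samples at P5 and 2 of 3 at P7. C1qb, Adgre1, Mrc1 and Tyrobp had no peak within the window in any sample, including the P1 samples, in which their RNA was highest.

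In counts, none of the 10 promoters differed between P3 and P1 at an exact permutation p under 0.05. Against P1, 1 (Lyz2) was stronger at P5 and 3 (Lyz2, Csf1r and C1qa) were stronger at P7. None was weaker, and the share of weaker promoters over all genes is not given here. C1qb, Adgre1, Mrc1 and Tyrobp, without a peak in any sample, could not differ. C1qa and Fcer1g, without a peak at P1 or P3, could not differ between those passages. With a sample left out no p under 0.05 can be reached, and promoters without overlap between the groups were counted. This gave 0 or 1 at P3, 1 or 2 at P5 and 3 or 4 at P7. The share of all promoters without overlap under this rule was not computed, so these counts have no background. Csf1r was added without replicate 1 of P3 and without replicate 3 of P5, Fcer1g without replicate 2 of P7, and C1qc, as weaker at P3, without replicate 4 of P1. At p under 0.05 with all samples, 2.69% of 17862 promoters with a peak were stronger at P3, 6.93% of 18018 at P5 and 8.76% of 18183 at P7. The comparisons share the P1 samples. With only the strongest 142384 peaks of every sample, Lyz2 was at 63.96 ± 6.159 at P1 and 85.11 ± 1.97 at P7, Csf1r at 34.92 ± 11.51 and C1qa at 14.39 ± 7.388 at P7, with the same calls.

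**Figure D3:**
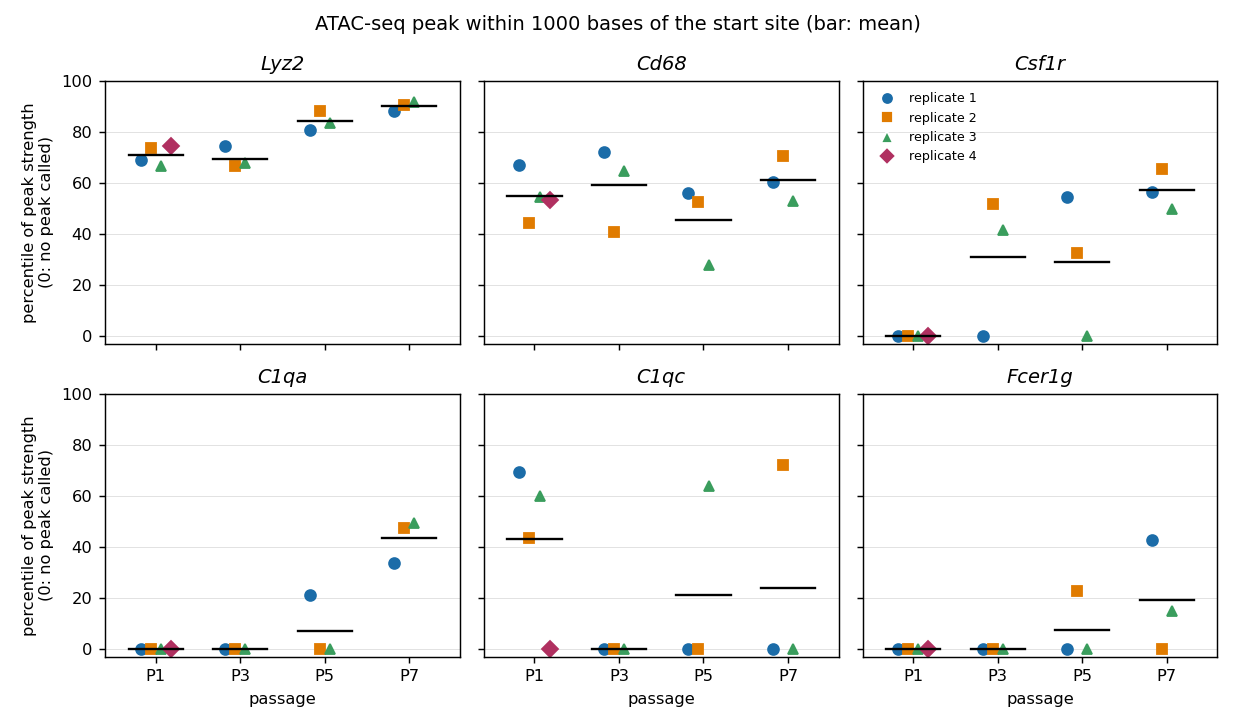
Percentile of the strongest ATAC-seq peak within 1000 bases of the start site among all peaks of its sample, for the 6 markers with a peak in any sample, with 0 where no peak was called. Each point is a sample and the bar is the mean (n = 4 at P1 and 3 at later passages). Lyz2 rises from 70.96 at P1 to 90.19 at P7, Csf1r and C1qa have no peak at P1 and a peak in 3 of 3 samples at P7, and Cd68 overlaps at all passages.

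Finally, the markers were examined where E2f4, Tead1 or Atf3 had been changed. The 7 markers with few reads were close to absent in these cultures. Their summed reads per library lay between 2 and 6 in the E2f4 overexpression experiment, where 5 or 6 of the 10 markers had no read, between 2 and 36 in the E2f4 knockdown, between 2 and 65 in the Tead1 knockdown and between 2 and 60 in the Atf3 knockdown. With totals of 9147324 to 27552949 counts, changes in these markers were mostly not detectable at this depth, and Lyz2, Cd68 and Csf1r alone passed the filter in every experiment, joined by C1qa in the Tead1 experiment.

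With E2f4 overexpressed, Csf1r was at 2.436 and 2.724 CPM against 4.933 and 4.034 CPM with the vector, lower without overlap (log2 fold change -0.81, standard error 0.24, adjusted p = 0.0128 with edgeR), and under the fold limit. Lyz2 was at 0.8725 and 0.9079 CPM against 1.397 and 1.786 (adjusted p = 0.0711), and Cd68, at 0.9088 and 1.338 CPM against 0.5239 and 1.268, overlapped between the groups. None of the 3 markers tested was called by edgeR or DESeq2, and 2 had an unadjusted p under 0.05, in an experiment in which 18.1% of 13199 genes were called.

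With E2f4 knocked down, 2 of the 3 markers tested were called higher, and 1.46% of 12310 genes were called higher. Csf1r was at 10.81, 9.197 and 10.72 CPM with sh1 against 4.662, 3.15 and 5.322 CPM with nt, and rose 2.34-fold (log2 fold change 1.22, standard error 0.21, adjusted p = 0.00102 with edgeR). Lyz2 was at 3.637, 3.503 and 6.346 CPM against 1.36, 0.9845 and 1.742 CPM, and rose 3.26-fold (adjusted p = 0.00336). Neither gene overlapped between the groups. Cd68 had 13, 11 and 11 reads with sh1 against 23, 15 and 30 with nt, with an adjusted p of 0.131. The 7 markers with few reads held 18, 5 and 36 reads with sh1 and 23, 2 and 13 with nt. Csf1 was 1.3-fold higher with sh1 (adjusted p = 0.00152), under the fold limit.

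In the Tead1 experiment both hairpins share the nt libraries. Lyz2 was at 4.45, 3.571 and 3.412 CPM with nt, at 1.482, 0.8271 and 1.959 CPM with sh3 and at 2.474, 4.182 and 2.586 CPM with sh4. It fell 2.66-fold with sh3 (log2 fold change -1.41, standard error 0.27, adjusted p = 0.000107 with edgeR) and was not called with sh4 (log2 fold change -0.31, standard error 0.24, adjusted p = 0.372). C1qa had 17, 10 and 4 reads with nt, 3, 0 and 0 with sh3 and 6, 15 and 1 with sh4. Its fall with sh3 (adjusted p = 0.00901) was lost without replicate 1 of nt (adjusted p = 0.0678), and C1qa was below the filter in the fit of these 2 groups alone and had no adjusted p in DESeq2. Csf1r lay between 4.592 and 6.672 CPM in all 9 libraries. Of the 4 markers tested, 2 were called lower with sh3 (0.722% of 13012 genes) and none with sh4 by edgeR or DESeq2, with none at an unadjusted p under 0.05 (background 1.53%). The difference between the hairpins was not tested. Csf1 was 1.58-fold higher with sh3 and 1.38-fold higher with sh4 (adjusted p = 2.12e-13 and 9.02e-10 with edgeR), and Il34 1.91-fold and 1.88-fold higher (adjusted p = 0.00254 and 0.00435), all under the fold limit. The 7 markers with few reads held 65, 34 and 25 reads with nt, 19, 2 and 19 with sh3 and 27, 41 and 15 with sh4.

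In the Atf3 experiment, where the hairpins again share the nt libraries, the hairpins lay on opposite sides of the control for Csf1r. It was at 6.616, 5.267 and 5.311 CPM with nt, at 7.908, 7.369 and 13.76 CPM with sh5 and at 1.801, 3.117 and 2.033 CPM with sh6. It fell 2.48-fold with sh6 (log2 fold change -1.31, standard error 0.29, adjusted p = 0.00387 with edgeR), and with sh5 its log2 fold change was 0.75 (standard error 0.26, adjusted p = 0.0476), under the fold limit. Cd68 was at 1.781, 1.756 and 2.309 CPM with nt and at 3.952, 3.476 and 3.718 CPM with sh6, higher without overlap but under the fold limit (log2 fold change 0.93, adjusted p = 0.00903), which it passed without replicate 3 of nt (log2 fold change 1.07, adjusted p = 0.0138). Lyz2 was at 5.09, 5.652 and 5.819 CPM with nt and at 2.964, 3.356 and 4.009 CPM with sh6 (log2 fold change -0.68, adjusted p = 0.0201). So with sh6 Lyz2 and Csf1r lay below the control and Cd68 above it. Il34 fell with both hairpins, 3.05-fold with sh5 and 7.1-fold with sh6 (adjusted p = 0.0394 and 0.00343), and Csf1 was 1.76-fold higher with sh6, under the fold limit (adjusted p = 0.000625). Of the 12 fibroblast genes 4 were called lower with sh6, where 10.9% of genes tested were, and the part of this in the result was not tested.

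The 7 markers with few reads held 43, 35 and 60 reads with the Atf3 nt hairpin, 23, 19 and 26 with sh5 and 3, 2 and 4 with sh6, without overlap between the groups. With edgeR 1 of the 3 markers tested was called with sh6 (Csf1r, lower, where 10.9% of 13345 genes were called lower). With DESeq2, which filters in another way and gave 9 of the markers an adjusted p, 6 were called lower with sh6 (background 9.61% of 15600 genes), namely Adgre1, C1qa, C1qb, C1qc, Csf1r and Fcer1g. With sh5 none was called by edgeR or DESeq2, 1 had an unadjusted p under 0.05, and 5.2% of genes were called.

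**Figure D4:**
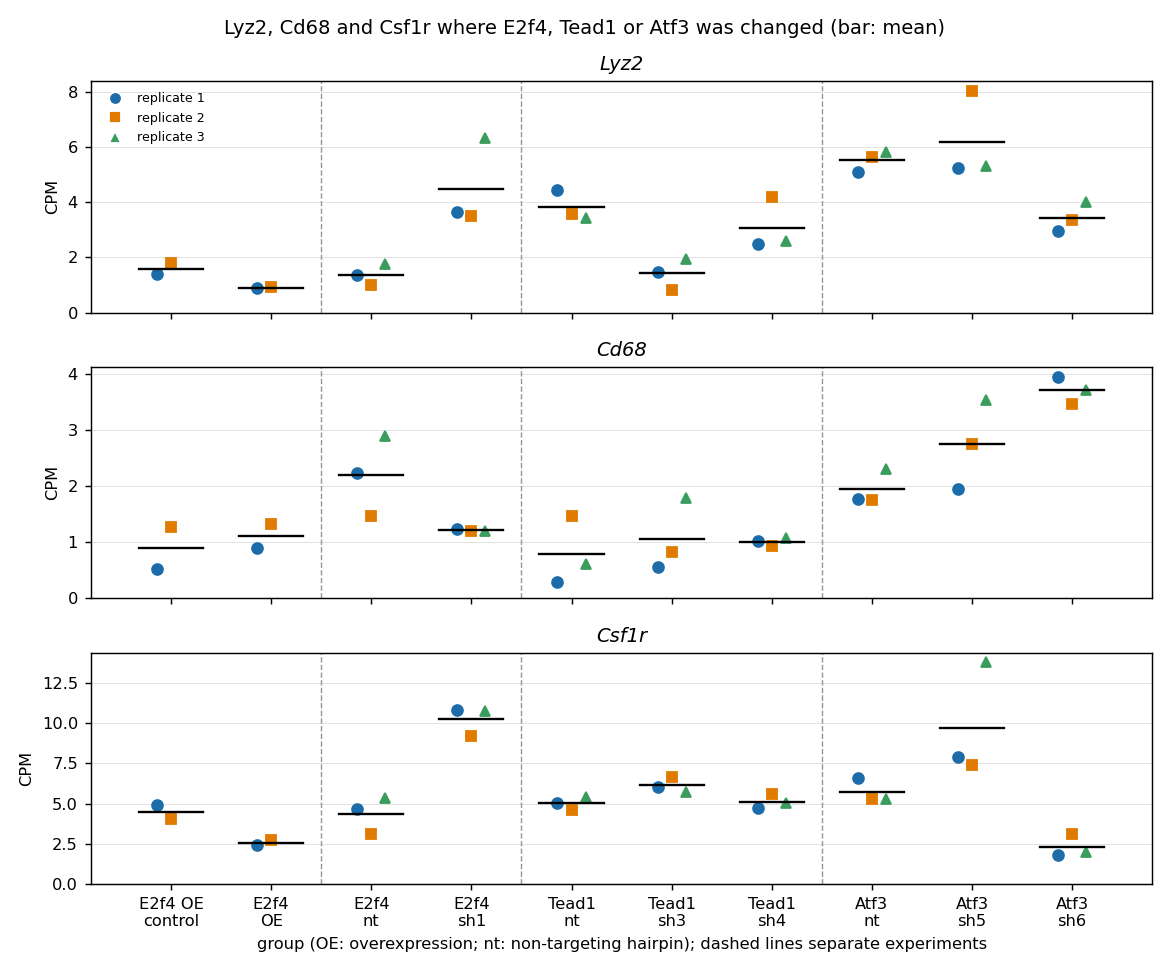
Level of Lyz2, Cd68 and Csf1r in CPM, on linear axes from 0, in each library of the E2f4, Tead1 and Atf3 experiments, where each point is a library and the bar is the mean (n = 2 with E2f4 overexpression and 3 elsewhere). Values are set side by side within an experiment only. Csf1r is higher with E2f4 sh1 and lower with Atf3 sh6 than with the control, and Lyz2 is higher with E2f4 sh1 and lower with Tead1 sh3, each without overlap.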

How the data were processed

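RNA-seq gene counts were made by the authors with Trimmomatic 0.39, HISAT2 2.2.1 (mm10) and HTSeq-count 0.12.4 without strand, and were deposited as whole-number counts per library. Without strand, reads of a gene and of an overlapping antisense gene cannot be told apart. How reads shared by overlapping or near-identical genes were treated is not stated. Rows that name no gene (7.5 to 16.8% of counts in 28 files) were left out. Peaks were called by the authors in each ATAC-seq sample with MACS2, and the deposited lists hold the -log10 p and the fold enrichment of each peak without read counts. The 18 RRBS samples were not analysed here.

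Each experiment was fitted by itself with all its groups in edgeR 4.0.16 (quasi-likelihood test, TMM, filterByExpr, R 4.3.3), and p-values were adjusted by the Benjamini-Hochberg method over all genes tested. Promoter peaks were compared by a two-sided exact permutation test (scipy 1.17.1). DESeq2 1.42.0, other filters and scalings, a replicate block and leaving out each library were alternatives. The edgeR step was tested on simulated data. Exact intervals have a level of 95%. Replicates differed by more than counting noise in all 50 pairs of libraries (chi-square per degree of freedom 2.74 to 59.9). Start sites, exon lengths and promoters were taken from RefSeq (GRCm38.p6), and of 24984 genes 24435 were matched by symbol and 423 by an older symbol. All 10 markers, Csf1, Il34, Spi1 and Lyz1 were named, with the 2 highest genes per length of each other list (6 for leukocytes), leukocyte genes called higher later, and the 10 genes most alike. Members and lists were chosen with earlier results of these data known.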

Additional observations from a re-analysis of the deposited data

Results flagged for a closer look

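Of 50 groups of 4 libraries or samples, 4 held a value that stood far from the other 3 by Dixon's criterion, where chance gives about 1 in 20. C1qb was at 1.655 CPM (25 reads) in replicate 4 of P5, against 0 to 0.2074 CPM in the others. In replicate 4 of P7, C1qc was at 1.633 CPM (22 reads) against 0 to 0.2315 CPM, and Tyrobp at 0.5938 CPM (8 reads) against 0 in the others. Cd68 was at 27.6 CPM (446 reads) in replicate 4 of P1, below the 40.2 to 42.13 CPM of the others.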

How the results depend on the processing

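Of 237 alternatives to the 14 counts of called markers or promoters, 220 kept the count within 1.5 times. Leaving out 1 library gave 3 to 6 markers between P5 and P3, 1 to 3 between P7 and P5, 1 to 2 with Tead1 sh3, 1 to 2 with Atf3 sh6, and 0 to 1 promoters at P3 and 1 to 2 at P5. Without a fold limit, 1 marker was called with E2f4 overexpressed, 1 with Atf3 sh5 and 3 with Atf3 sh6. Without the filter on low counts these were 1 with Atf3 sh5 and 5 with Atf3 sh6, and with DESeq2 6 with Atf3 sh6. With Tead1 sh3, 1 marker was called with a mean CPM of at least 1, with only the 2 groups compared and with DESeq2, since C1qa was not tested there. By bases covered 0 promoters differed at P5, and the cause was not tested. Of 1271 alternatives to the 63 single-gene results, 1240 kept direction and call, 15 gained and 9 lost the call and 7 turned direction, all of differences that were not called. Leaving out 1 library, Cd68 ranged from -0.20 to 1.07 on the log2 scale with E2f4 overexpressed, from -0.18 to 1.20 with Tead1 sh3 and from -0.025 to 1.13 with sh4. Csf1r ranged from -0.041 to 0.091 and C1qa from -1.61 to 0.048 with Tead1 sh4, and Lyz2 from -0.064 to 0.30 with Atf3 sh5. Whether equal replicate numbers pair the libraries is not stated in the labels and was not settled here. In the passage series, deviations of same-numbered libraries correlated between -0.372 and 0.377, with 13 of 24 pairs over 0.1. The mean was 0.086, against -0.028 for unlike numbers. In the E2f4 overexpression experiment there were only 2 pairs (0.234 each). The replicate block changed no count of called markers (10 at P3 and P5 and 9 at P7 against P1). With few reads at late passage and no read counts behind the peaks, depth limits what the 7 scarce markers can show.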

Other observations

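The partners of C1q and leukocyte genes were also read where a factor had been changed. With E2f4 sh1, 2 of the 3 tested partners of C1q in the C1 complex were called higher (C1ra and C1s1), and with Atf3 sh6 all 3 were called lower. Among all genes tested, 1.46% were called higher with E2f4 sh1 and 10.9% lower with Atf3 sh6. With the other Atf3 hairpin, sh5, none of the 3 was called by edgeR or DESeq2, with 3 at an unadjusted p under 0.05, and the difference between the hairpins was not tested. None was called by edgeR or DESeq2 with E2f4 overexpressed or with Tead1 sh3 or sh4 (1, 1 and 3 at an unadjusted p under 0.05). Cd53 was called higher with both Atf3 hairpins, whereas Csf1r lay above the control with sh5 and below it with sh6. With the Tead1 hairpins none of 12 tested leukocyte genes was called by edgeR or DESeq2, with 4 (sh3) and 6 (sh4) at an unadjusted p under 0.05.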
